A study of Mus musculus with 27 samples.

Results

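The mRNAs of 31 genes of cholesterol and fatty acid synthesis were followed in mouse embryonic stem cells after a brief exposure to hydrogen peroxide (H2O2). The genes were taken by symbol, and each of the 31 matched 1 of the 38352 genes in the deposited tables. They comprised 8 genes from acetoacetyl-CoA to squalene, 10 from squalene to cholesterol, 5 genes of sterol sensing and SREBP (sterol regulatory element-binding protein), 2 of sterol transport and 6 of fatty acid synthesis. All 31 reached 1 FPKM (fragments mapped to a transcript, scaled by its length and by the mapped fragments of the library) in at least 3 libraries and so were among the 13614 genes tested.

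All groups were wild-type E14Tg2a cells, an embryonic stem cell line of the mouse, kept on gelatin in serum medium with leukemia inhibitory factor and the inhibitor pair called 2i. H2O2 was applied at 500 µM for 30 min per the treatment protocol, after which the cells received spent medium of untreated cells; the series description states mM instead, and the unit given here is that of the protocol. Treated groups were collected directly after the exposure (H2O2 0.5 h) and at 2, 4, 6, 8, 10 and 24 h, and their controls were untreated 0 h for the groups up to 10 h and untreated 24 h for H2O2 24 h, with 3 biological replicates in each of the 9 groups. No group is labelled as a medium change alone, so peroxide and medium change cannot be told apart. In bulk RNA, fewer cells with a transcript and less of it per cell cannot be told apart either.

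Cholesterol is built from acetyl-CoA through mevalonate, farnesyl pyrophosphate and squalene, and the sterol ring is then modified step by step. When sterols are low, SCAP carries SREBP proteins from the endoplasmic reticulum to the Golgi, where proteases release an active transcription factor; INSIG proteins hold SCAP back when sterols are plentiful. SREBP-2 mainly raises cholesterol synthesis genes and SREBP-1 mainly fatty acid synthesis genes, and most of the genes described here are textbook targets of one or both. Dividing cells such as embryonic stem cells draw on both pathways for new membrane.

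The embryonic stem cell label was checked with 10 markers, among them Pou5f1, Nanog and Esrrb, whose summed FPKM lay between 2421 and 4493 over all libraries, with none below 0.1 FPKM in any group. Absolute depth is unknown because FPKM hides it; relative depth read from the lowest values spanned 0.981 to 1.101, and 11516 to 12607 genes reached 1 FPKM. The libraries that stood apart were 4, chosen with earlier results known: untreated 0 h replicate 3, H2O2 2 h replicate 1, H2O2 8 h replicate 3 and H2O2 10 h replicate 3. Their log2 FPKM rose with the GC content of genes by 0.357, 0.321, 0.192 and 0.203 per 10 percentage points relative to untreated 0 h replicates 1 and 2, although the 3 libraries of H2O2 4 h (0.205, 0.130 and 0.174) and untreated 24 h replicate 1 (0.178) were also tilted. The summed FPKM of the 6 fatty acid genes was 117 in untreated 0 h replicate 3, against 229 and 221 in the other 2 libraries of that group, and 130 in H2O2 2 h replicate 1, against 219 and 216 in the other 2. Results below are from all 27 libraries, with the values without these 4 beside those they touch, which leaves untreated 0 h and H2O2 2 h, 8 h and 10 h with 2 libraries each.

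Transcripts of hepatocytes, a cell type the culture should lack, were uneven across libraries. A list of 25 hepatocyte genes summed to 56.5 to 81.6 in H2O2 0.5 h, 57.7 FPKM in replicate 3 of H2O2 6 h but 1.75 and 1.81 in its other replicates, 74.0 and 65.2 in replicates 1 and 2 of H2O2 8 h but 2.06 in replicate 3, and 1.52 to 2.05 in H2O2 24 h, against 53.8 to 69.3 in untreated 24 h and 1.66 to 9.16 in untreated 0 h. In the groups with high sums, Mup20 alone was below 0.1 FPKM in H2O2 0.5 h, H2O2 8 h and untreated 24 h, whereas 18 of the 25 were below 0.1 FPKM in H2O2 24 h. The part of these transcripts in the results below was not tested. Leaving out the 3 high libraries of 6 h and 8 h ended the calls of Acat2, Fdps and Srebf1 at 6 h and of Acat2, Fdps, Fdft1, Hsd17b7, Ebp, Stard4 and Abca1 at 8 h, where it leaves 1 treated library, H2O2 8 h replicate 3, itself one of the 4 that stood apart; the values stand beside each gene. Genes of adipocytes, a lipid-storing cell type, summed to at most 0.480 FPKM in any library. A list of 6 astrocyte genes was also uneven, with 2.42 to 3.55 FPKM in untreated 0 h and 6.94 to 7.43 in untreated 24 h. It had 7.09, 14.4 and 13.2 FPKM at H2O2 6 h and 13.2 to 14.9 at 8 h. Lists of oligodendrocyte and fibroblast genes summed to at most 8.89 and 2.30 FPKM. The part of these lists in the results was not tested.

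The stretch before the start site is shown for 4 genes that the results turn on, because most of these genes are known through their promoters. Hmgcs1 was the only one of the 25 genes with a promoter window to match the sterol regulatory element searched. Nsdhl and Ebp are shown as genes that fell, and Scap as the gene that rose most. Sqle and Scd2, which also fell, had no window. Sequences are RefSeq promoter windows on GRCm38.p6, given 5′ to 3′ on the gene's own strand from 250 bases before the start site up to the start site. Capitals mark matches, on either strand, to TCACNCCAC (sterol regulatory element), TCACGTGA (an E-box), CCAAT (the NF-Y box) and GGGCGG (the Sp1 box); overlapping matches were allowed.
Hmgcs1, chr13:119690101-119690350, plus strand: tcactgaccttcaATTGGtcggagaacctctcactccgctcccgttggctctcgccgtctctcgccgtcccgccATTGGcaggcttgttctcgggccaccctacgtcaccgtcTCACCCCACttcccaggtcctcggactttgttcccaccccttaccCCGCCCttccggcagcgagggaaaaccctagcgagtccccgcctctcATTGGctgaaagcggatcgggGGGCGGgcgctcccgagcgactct
Nsdhl, chrX:72918271-72918520, plus strand: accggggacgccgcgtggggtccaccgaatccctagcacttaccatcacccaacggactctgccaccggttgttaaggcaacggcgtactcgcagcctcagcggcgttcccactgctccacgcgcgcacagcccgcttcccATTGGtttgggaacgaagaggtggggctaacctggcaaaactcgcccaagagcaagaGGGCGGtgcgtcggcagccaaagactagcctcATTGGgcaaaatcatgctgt
Ebp, chrX:8193513-8193762, minus strand: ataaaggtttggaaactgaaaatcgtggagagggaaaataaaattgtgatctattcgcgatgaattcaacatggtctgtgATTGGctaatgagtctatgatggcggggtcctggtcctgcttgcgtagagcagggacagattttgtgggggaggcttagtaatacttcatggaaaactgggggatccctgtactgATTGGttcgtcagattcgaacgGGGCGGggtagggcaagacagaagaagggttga
Scap, chr9:110333038-110333287, plus strand: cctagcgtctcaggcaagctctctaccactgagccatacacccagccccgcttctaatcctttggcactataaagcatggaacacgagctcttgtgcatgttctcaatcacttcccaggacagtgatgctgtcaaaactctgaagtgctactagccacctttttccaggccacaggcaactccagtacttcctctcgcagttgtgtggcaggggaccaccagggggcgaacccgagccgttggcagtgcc

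Promoter windows were held for 25 of the 31 genes, and none for Fdps, Fdft1, Sqle, Stard4, Scd1 and Scd2. Matches were counted over the whole window, from 250 bases before to 50 bases after the start site. The NF-Y box occurred in windows of 20 of the 25 genes (80%), against 44.3% of the 9309 tested genes with a window and 41.1% of all 27025 genes with one. The Sp1 box occurred in 21 of the 25 (84.0%), against 69.1% of tested genes with a window and 38.2% of all genes with one. TCACNCCAC was found in Hmgcs1 alone (4.0%), starting at position -137 from its start site, against 1.41% of tested genes with a window and 1.44% of all genes. TCACGTGA was in none of the 25, against 2.32% of tested genes with a window and 1.12% of all. In the Scap window shown, the Sp1 match lay after the start site; the window of a second Scap start site also had one before it, at position -30. These counts describe letters in one window per start site and say nothing of whether a factor was bound.

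No gene of the 31 was called at 0.5 h or 2 h. A gene was called when its limma adjusted p (Benjamini-Hochberg over all 13614 genes) was below 0.05, on the log2(FPKM + 1) scale used for every change and SE below, which understates changes of weakly expressed genes. At 0.5 h, 0 of the 31 also had an unadjusted p below 0.05, and 0.0808% of all tested genes were called (0.0147% higher, 0.0661% lower). At 2 h, 1 of the 31 had an unadjusted p below 0.05, and 1.07% of all tested genes were called. Without the 4 libraries the counts of called genes were again 0 and 0, with 0 and 7 at an unadjusted p below 0.05; at 2 h 2.51% of all tested genes were then called, 0.646% higher.

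From 4 h onward genes of the set were called in both directions. At 4 h, 3 of the 31 were called (1 higher, 2 lower), 9.68% against 26.3% of all tested genes. At 6 h, 13 were called (5 higher, 8 lower), 41.9% against 42.3%. At 8 h, 11 were called (6 higher, 5 lower), 35.5% against 40.7%. At 10 h, 7 were called (3 higher, 4 lower), 22.6% against 31.7%. At 24 h, 5 were called (2 higher, 3 lower), 16.1% against 12.9% (8.63% of all tested genes higher, 4.28% lower). These shares were close to those of all tested genes at 6 h and 24 h, and below them at 4 h, 8 h and 10 h, with no test of the difference.

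The directions of the calls are set beside those of all genes as a description, with no test. At 6 h 25.8% of the set was called lower and 16.1% higher, against 20% lower and 22.3% higher of all tested genes. Genes called lower made up 16.1% of the set at 8 h and 12.9% at 10 h, against 11.6% and 9.43% of all tested genes, whereas genes called higher made up 19.4% and 9.68%, against 29.2% and 22.2%. The median change of the 31 genes was -0.11 at 6 h, -0.16 at 8 h and -0.05 at 10 h, against 0.00 at 6 h, 0.11 at 8 h and 0.11 at 10 h over all tested genes. These medians are descriptions, with no test of the set. Median-of-ratios scaling lowered the median of all genes by more than 0.1 at 8 h (a shift of -0.13) and 10 h (-0.12), and the set's median then stood at -0.29 and -0.17. With that scaling, 18 genes were called at 8 h (3 higher, 15 lower) and 13 at 10 h (3 higher, 10 lower). At 6 h 16 were called (4 higher, 12 lower), and at 24 h 3 were (2 higher, 1 lower). Shares of all tested genes under that scaling are not given here, so the counts cannot be compared with those of all genes.

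Between successive treated times, 0 of the 31 were called from 0.5 h to 2 h (1.17% of all tested genes) and 3 from 2 h to 4 h (2 higher, 1 lower), against 10.2% of all tested genes higher and 9.89% lower. From 4 h to 6 h, 6 were called (2 higher, 4 lower), against 11.6% higher and 8.48% lower. From 6 h to 8 h, 4 were called (3 higher, 1 lower), against 18.1% higher and 6.02% lower. From 8 h to 10 h, Scap alone was called, lower, against 5.37% of all tested genes, 1.78% higher and 3.58% lower.

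Leaving out the 4 libraries raised the counts from 4 h onward, for this set and for all tested genes. The set then had 18 called at 4 h (5 higher, 13 lower), 21 at 6 h (5 higher, 16 lower), 23 at 8 h (7 higher, 16 lower), 15 at 10 h (5 higher, 10 lower) and 14 at 24 h (8 higher, 6 lower). As shares these were 58.1%, 67.7%, 74.2%, 48.4% and 45.2%, against 50.6%, 56.1%, 48.3%, 39.8% and 51.3% of all tested genes. None of the 4 libraries belonged to a 24 h group, so the 24 h changes were the same and only the pooled spread and the adjustment differed. At 8 h, 51.6% of the set was called lower, against 17.6% of all tested genes, and at 6 h 51.6% against 30.7%. Of the genes called with all libraries, 3 of 3, 12 of 13, 11 of 11, 7 of 7 and 5 of 5 were also called without the 4, the exception being Acat2 at 6 h.

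**Figure D1:**
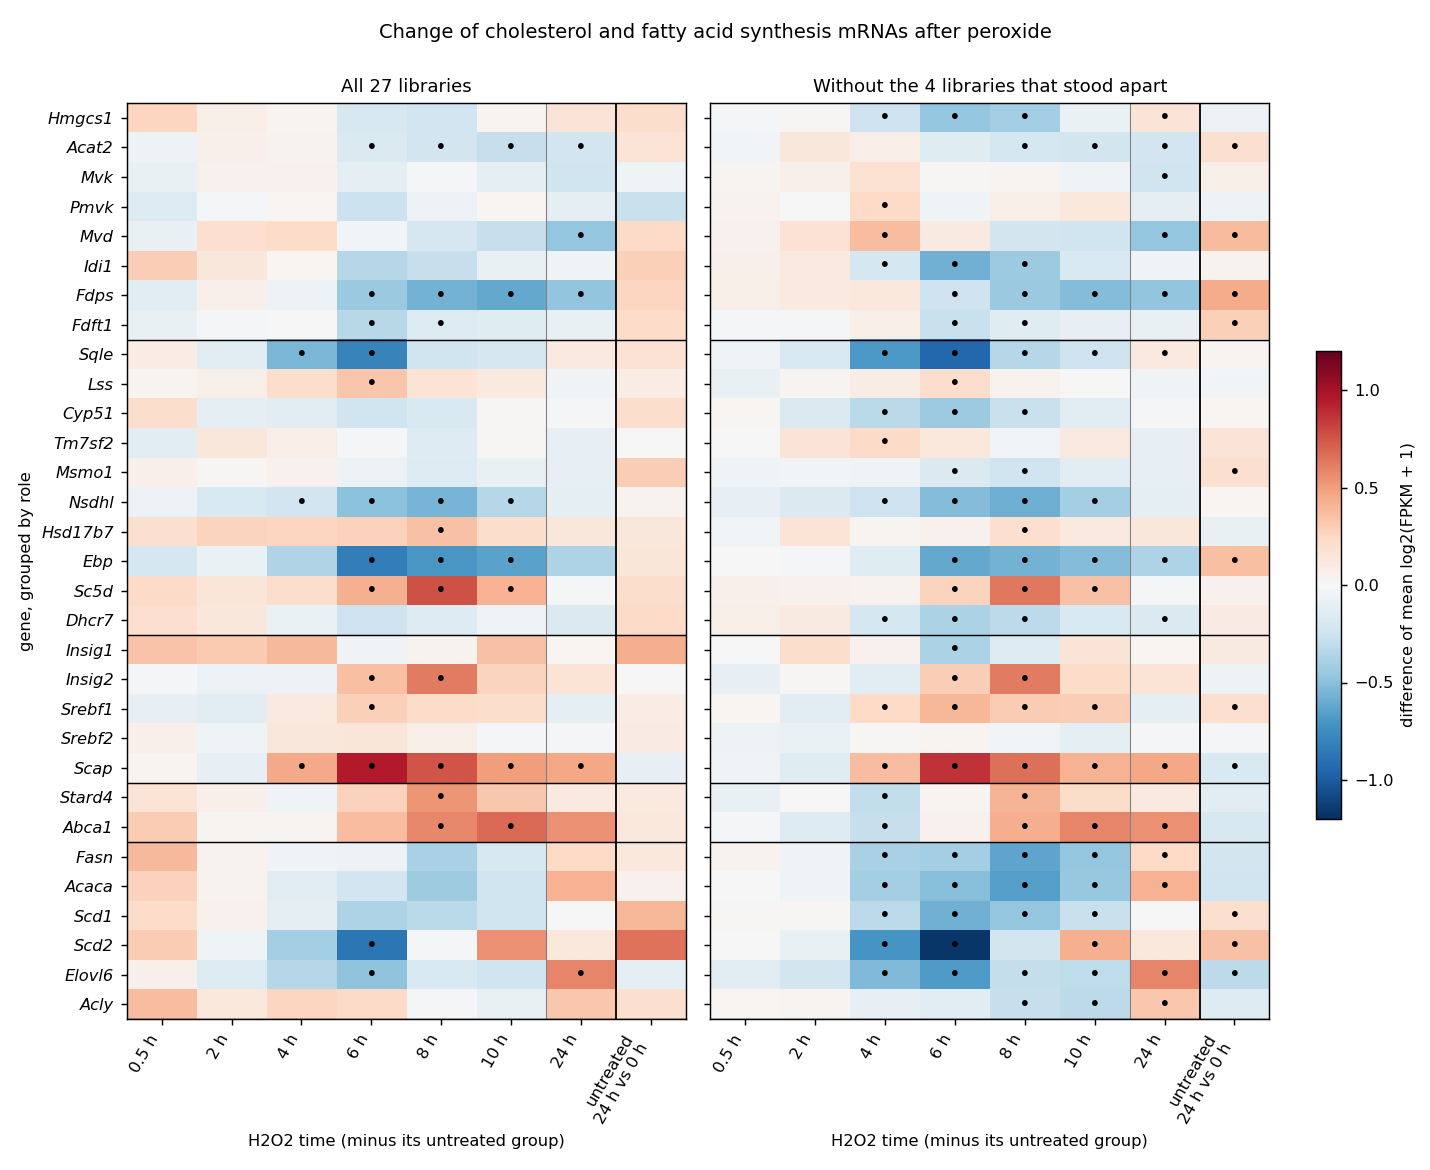
Change of each of the 31 mRNAs (rows, grouped by role) at each H2O2 time relative to its untreated group, and of untreated 24 h relative to untreated 0 h (last column of each panel); colour is the difference of mean log2(FPKM + 1) and dots mark a limma adjusted p below 0.05. Left panel, all 27 libraries; right panel, without the 4 libraries that stood apart, where more of the falls from 4 h to 10 h pass the test.

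The largest rise of the set was in Scap, which encodes the escort of SREBP. Scap (ENSMUSG00000032485, GRCm38 chromosome 9, 110333288 to 110384950, plus strand) had 14.3, 14.7 and 13.7 FPKM at H2O2 6 h, against 7.37, 7.31 and 5.99 FPKM in untreated 0 h. It rose by 0.95 ± 0.07 (SE; limma adjusted p = 4.96e-10). All treated libraries lay above all untreated ones, and the rise was 0.87 without the 4 libraries (limma adjusted p = 9.34e-10).

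Scap rose first at 4 h and was higher than its control at each later time. Its libraries had 9.73, 9.81 and 9.70 FPKM at 4 h (change 0.45 ± 0.07, limma adjusted p = 4.36e-05), 11.8, 12.6 and 12.4 FPKM at 8 h (0.76 ± 0.07, adjusted p = 3.52e-08) and 10.5, 9.79 and 10.1 FPKM at 10 h (0.50 ± 0.07, adjusted p = 1.49e-05). At H2O2 24 h they had 9.31, 8.83 and 9.20 FPKM, against 7.10, 6.17 and 5.84 FPKM in untreated 24 h (0.46 ± 0.07, limma adjusted p = 0.000219). Without the 4 libraries the changes at 4 h, 8 h, 10 h and 24 h were 0.37, 0.66, 0.42 and 0.46, all called. At none of these 5 times did a treated library overlap its controls. The level was lower after 6 h, by 0.20 ± 0.07 at 8 h relative to 6 h (limma adjusted p = 0.0445) and by 0.26 ± 0.07 at 10 h relative to 8 h (adjusted p = 0.0371). Both calls were lost with a pseudocount of 0.1. The call from 8 h to 10 h was also lost when any 1 library of its comparison was left out, and on only the libraries compared. A gene model on the opposite strand, 5830462I19Rik, shares 13.2% of the exon bases of Scap and reached at most 0.468 FPKM; the strand setting of the counting is not given in the sources used here. In the authors' deposited table Scap at 6 h had a log2 fold of 1.05 and a q-value of 1.02e-09. It was the only one of the 31 genes marked significant at any time, and 2523 genes carried the mark at 6 h. The mark required more than a small q-value, since Sqle had one of 5.03e-07 at 6 h and was not marked. A q-value below 0.05 was given to 6 of the 31 at 6 h (5 lower, 1 higher), against 23.9% of the 13614 genes tested here. At 8 h it was given to 7 (4 lower, 3 higher), against 14.6%.

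Of the other genes of sterol sensing, Insig2 rose and Srebf2 was not called. Insig2 encodes a sterol-sensitive anchor of SCAP. It had 6.20, 5.27 and 6.24 FPKM at H2O2 6 h and 7.33, 8.06 and 6.52 FPKM at 8 h, against 4.85, 4.41 and 3.86 FPKM in untreated 0 h, with no overlap at either time. The rise was 0.36 ± 0.11 at 6 h (limma adjusted p = 0.0102) and 0.63 ± 0.11 at 8 h (adjusted p = 9.87e-05), and 0.29 and 0.63 without the 4 libraries. The 6 h call was lost without untreated 0 h replicate 3 (0.29, adjusted p = 0.051). Insig1, its paralog and a textbook SREBP target, had 8.19, 8.15 and 7.37 FPKM at H2O2 6 h, against 10.2, 10.9 and 4.76 FPKM in untreated 0 h. Its treated libraries lay below untreated replicates 1 and 2 and above replicate 3, so the change was -0.04 ± 0.21 with all libraries (limma adjusted p = 0.895) and -0.38 without the 4 (adjusted p = 0.00214).

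Srebf1, which encodes SREBP-1, rose at 6 h and Srebf2, which encodes SREBP-2, stayed within narrow bounds. Srebf1 had 10.5, 10.5 and 10.7 FPKM at H2O2 6 h, against 7.34, 8.22 and 10.2 FPKM in untreated 0 h (0.28 ± 0.09, limma adjusted p = 0.0148; 0.40 without the 4 libraries). That call was lost with median-of-ratios scaling (0.25, limma adjusted p = 0.103) and with a correction for GC content and length (0.13, adjusted p = 0.266), and missed the threshold without untreated 0 h replicate 1 (0.19, adjusted p = 0.1) and without the 3 libraries with hepatocyte transcripts (0.28, adjusted p = 0.0552). Without the 4 libraries Srebf1 was also called higher at 4 h, 8 h and 10 h, by 0.24, 0.30 and 0.29, and with a replicate block at 8 h (0.22, limma adjusted p = 0.0488). The group means of Srebf2 lay between 22.7 and 26.1 FPKM in all 9 groups, and its changes with all libraries lay between -0.05 and 0.15.

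Lpin1 and Fbxw7, which act on SREBP without belonging to the 31, rose at 6 h. Of 14 tested genes of SREBP processing and turnover (15 listed), 7 were called at 6 h, 6 higher (42.9%) and 1 lower (7.14%). Of all tested genes 22.3% were called higher and 20% lower. Without the 4 libraries 6 were higher (42.9%) and 3 lower (21.4%), against 25.4% and 30.7% of all tested genes. Lpin1, a phosphatidate phosphatase that also restrains SREBP in the nucleus, had 15.2, 15.4 and 15.1 FPKM at H2O2 6 h, against 4.37, 4.22 and 2.02 FPKM in untreated 0 h (1.88 ± 0.19, limma adjusted p = 4.98e-08). Fbxw7, the substrate receptor of a ubiquitin ligase that marks active SREBP for degradation, had 18.9, 20.0 and 18.7 FPKM at H2O2 6 h, against 7.93, 7.81 and 7.08 FPKM in untreated 0 h (1.23 ± 0.09, adjusted p = 9.19e-10). Neither gene's groups overlapped, and the changes were 1.61 and 1.19 without the 4 libraries. Rnf145 and Rnf139, which encode ubiquitin ligases of the endoplasmic reticulum membrane, changed by -0.59 ± 0.15 (adjusted p = 0.00249) and 0.40 ± 0.12 (adjusted p = 0.011), and by -0.85 and 0.26 without the 4 libraries, both called. At 8 h, 8 genes of this list were called, all higher (57.1%, against 29.2% of all tested genes), and at 24 h 3 were, all higher (21.4%, against 8.63%).

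**Figure D2:**
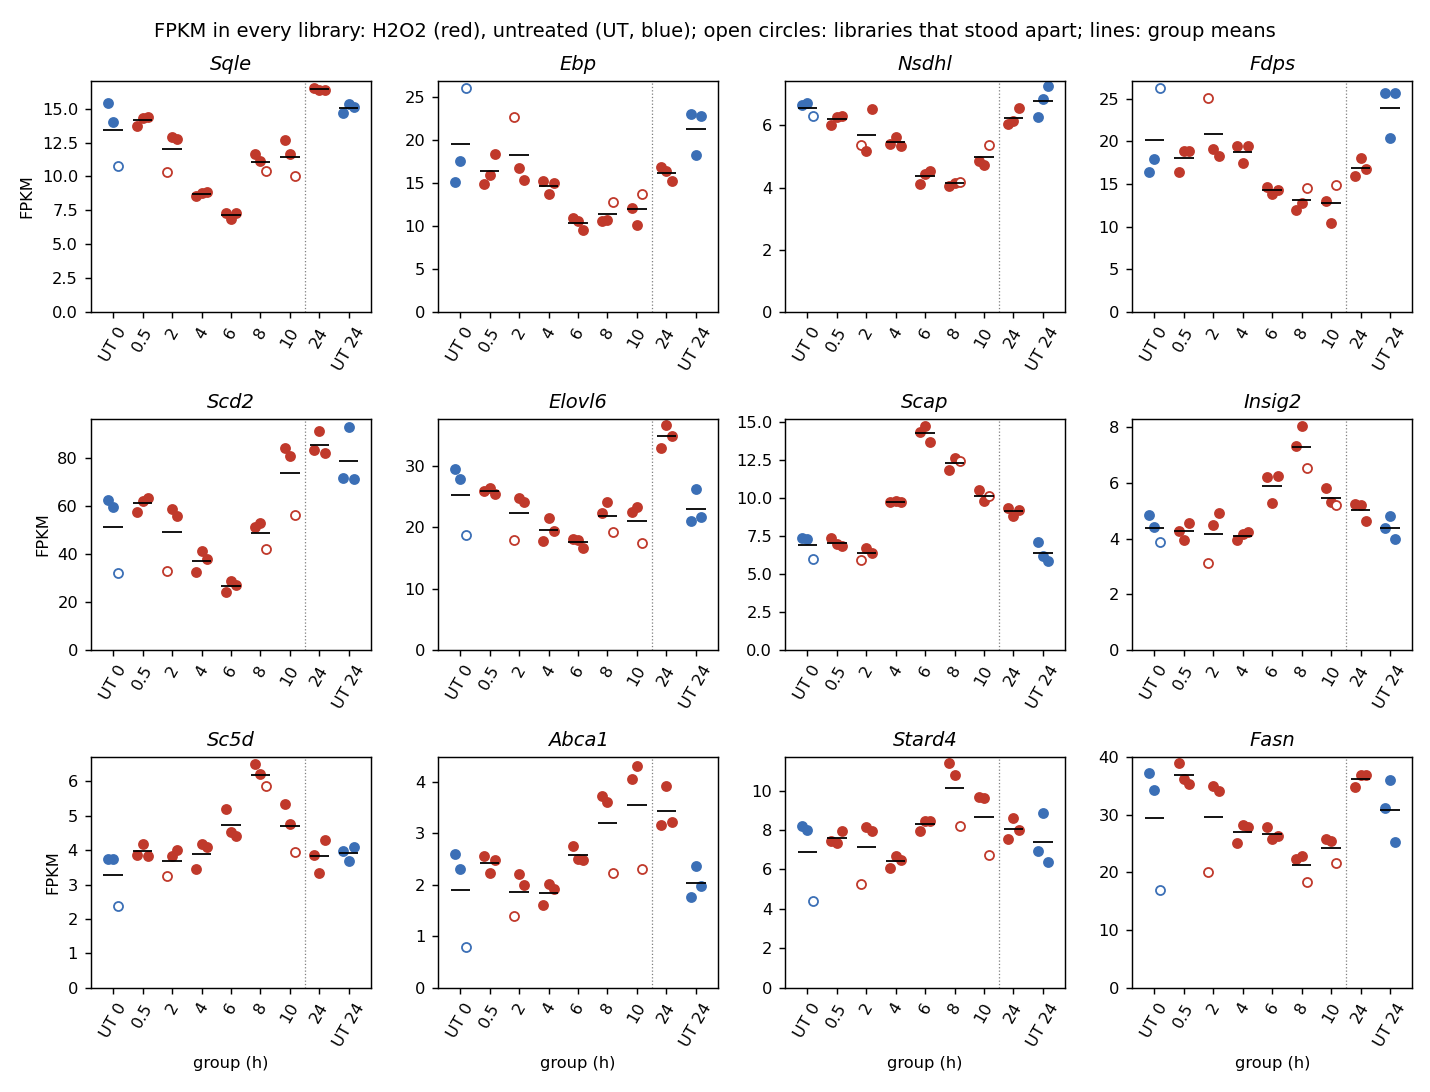
FPKM of 12 of the 31 genes in every library, with time in hours on the horizontal axis; red points are H2O2 libraries, blue points untreated (UT) ones, open circles the 4 libraries that stood apart and bars the group means, and the dotted line separates the groups compared with untreated 0 h from the 24 h pair. Scap is highest at 6 h, where its 3 libraries lie between 13.7 and 14.7 FPKM, and Sqle and Scd2 are lowest there.

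In the mevalonate section of the pathway, Fdps, Acat2 and Fdft1 fell at 6 h and 8 h. The summed FPKM of the 8 genes was 150, 150 and 151 at H2O2 6 h and 146, 149 and 155 at 8 h, against 178, 179 and 182 in untreated 0 h. At 6 h 3 of the 8 were called lower and none higher (37.5%, against 20% of all tested genes called lower), and without the 4 libraries 4 were called lower and none higher (50%, against 30.7%).

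Fdps, which encodes farnesyl pyrophosphate synthase, was lower from 6 h to 24 h. Fdps (ENSMUSG00000059743, chromosome 3, 89093588 to 89101959, minus strand) had 14.7, 13.8 and 14.3 FPKM at 6 h, 12.0, 12.7 and 14.6 FPKM at 8 h and 12.98, 10.4 and 14.8 FPKM at 10 h, against 16.4, 17.9 and 26.3 FPKM in untreated 0 h. The changes were -0.44 ± 0.15, -0.57 ± 0.15 and -0.61 ± 0.15 (limma adjusted p = 0.0184, 0.00398 and 0.00308). The changes without the 4 libraries were -0.25, -0.44 and -0.52, all called; the 6 h call was lost when untreated 0 h replicate 3 alone was left out (adjusted p = 0.147) or H2O2 6 h replicate 2 was (-0.42, adjusted p = 0.0548), and both it and the 8 h call without the 3 libraries with hepatocyte transcripts (adjusted p = 0.053 and 0.216). At H2O2 24 h Fdps had 15.9, 18.02 and 16.8 FPKM, against 25.6, 20.4 and 25.6 FPKM in untreated 24 h (-0.47 ± 0.15, limma adjusted p = 0.039). The 24 h call of Fdps was lost when any 1 H2O2 24 h library was left out. A same-strand gene model, Gm43738, shares 26.7% of its exon bases and reached at most 1.07 FPKM, so reads may have been split between them.

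Acat2, the cytosolic acetyl-CoA acetyltransferase at the head of the pathway, showed small falls. It had 36.1, 36.2 and 35.5 FPKM at 6 h, 33.5, 34.9 and 35.6 FPKM at 8 h and 37.1, 31.1 and 32.0 FPKM at 10 h, against 39.9, 39.6 and 42.3 FPKM in untreated 0 h. The changes were -0.17 ± 0.07, -0.22 ± 0.07 and -0.28 ± 0.07 (limma adjusted p = 0.0471, 0.0119 and 0.0033), and the first was not called without the 4 libraries (-0.14, adjusted p = 0.0759) or with a replicate block (adjusted p = 0.056), nor when any 1 library of its comparison was left out. The 8 h call was lost without H2O2 8 h replicate 1 (-0.20, adjusted p = 0.0525). Without the 3 libraries with hepatocyte transcripts neither the 6 h nor the 8 h change was called (-0.16, adjusted p = 0.137, and -0.18, adjusted p = 0.249). It had 40.2, 39.4 and 37.0 FPKM at H2O2 24 h, against 46.9, 45.6 and 44.6 FPKM in untreated 24 h (-0.23 ± 0.07, adjusted p = 0.0295). The 24 h call was lost without H2O2 24 h replicate 2 or 3, or without any 1 untreated 24 h library. Acat3, a close copy, had 1.03 to 3.98 FPKM over the libraries, and how reads shared by the 2 genes were counted is not given in the sources used here.

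Fdft1, which encodes squalene synthase, fell by 0.33 ± 0.07 at 6 h (limma adjusted p = 0.00033) and by 0.17 ± 0.07 at 8 h (adjusted p = 0.0466). Its libraries had 16.7, 16.6 and 17.5 FPKM at H2O2 6 h, against 20.3, 20.8 and 23.7 FPKM in untreated 0 h. The 8 h call was lost without untreated 0 h replicate 3 (-0.10, adjusted p = 0.23). It was also lost without H2O2 8 h replicate 1 (-0.15, adjusted p = 0.137) or replicate 2 (-0.15, adjusted p = 0.147), with no filter and with no trend. Without the 3 libraries with hepatocyte transcripts the 8 h change was -0.09. The exons of Fdft1 overlap those of Ctsb on the opposite strand over 18.3% of their bases, and Ctsb reached 31.6 FPKM, so reads of the 2 genes could not be told apart without strand.

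Hmgcs1, Idi1, Mvk, Pmvk and Mvd were not called up to 10 h with all libraries. Hmgcs1, the synthase of HMG-CoA, had 28.8, 30.5 and 28.8 FPKM at H2O2 6 h, against 42.0, 40.0 and 22.5 FPKM in untreated 0 h, and Idi1, the isopentenyl diphosphate isomerase, had 14.5, 14.3 and 14.9 FPKM, against 22.8, 21.6 and 13.2 FPKM. For both genes untreated replicate 3 lay below every 6 h library and replicates 1 and 2 lay above. Hmgcs1 changed by -0.19 ± 0.19 with all libraries (limma adjusted p = 0.46) and by -0.47 without the 4 (adjusted p = 2.41e-05), and Idi1 by -0.34 ± 0.17 (adjusted p = 0.116) and by -0.58 (adjusted p = 6.03e-07). Mvd, the mevalonate diphosphate decarboxylase, was called at 24 h (-0.47 ± 0.15, limma adjusted p = 0.0458). It had 17.8, 16.7 and 18.6 FPKM at H2O2 24 h, against 28.1, 22.3 and 24.6 FPKM in untreated 24 h. That call was lost when any 1 H2O2 24 h library was left out. The kinases Mvk and Pmvk were not called against their controls with all libraries, where their changes lay between -0.26 and 0.05.

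Between squalene and cholesterol, Sqle, Nsdhl and Ebp fell, and Sc5d, Lss and, at 8 h, Hsd17b7 rose. The summed FPKM of the 10 genes was 58.5, 57.4 and 56.4 at H2O2 6 h, against 76.7, 77.8 and 71.7 in untreated 0 h. At 6 h, 2 of the 10 were called higher (20%) and 3 lower (30%), against 22.3% and 20% of all tested genes.

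Sqle encodes squalene epoxidase, a rate-controlling enzyme of sterol synthesis. Sqle (ENSMUSG00000022351, chromosome 15, 59315077 to 59331192, plus strand) had 8.58, 8.81 and 8.84 FPKM at 4 h and 7.30, 6.89 and 7.32 FPKM at 6 h, against 15.4, 14 and 10.8 FPKM in untreated 0 h. The groups did not overlap at either time. It fell by 0.55 ± 0.10 at 4 h (limma adjusted p = 0.000181) and by 0.80 ± 0.10 at 6 h (adjusted p = 7.85e-07), and the changes without the 4 libraries were -0.69 and -0.94. From 6 h to 8 h it rose by 0.56 ± 0.10 (limma adjusted p = 0.000174), to 11.7, 11.1 and 10.4 FPKM. At 8 h and 10 h it was not called with all libraries (-0.24, adjusted p = 0.0516, and -0.20, adjusted p = 0.123) and was called lower without the 4 (-0.34 and -0.25). At H2O2 24 h it had 16.6, 16.3 and 16.4 FPKM, against 14.7, 15.4 and 15.2 FPKM in untreated 24 h. The change of 0.12 ± 0.10 was not called with all libraries (limma adjusted p = 0.393). The same change was called without the 4 (adjusted p = 0.0265).

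Nsdhl was called lower from 4 h to 10 h and Ebp from 6 h to 10 h. Nsdhl encodes a sterol dehydrogenase of C4 demethylation (ENSMUSG00000031349, chromosome X, 72918557 to 72958514, plus strand). It had 5.41, 5.61 and 5.34 FPKM at 4 h, 4.10, 4.43 and 4.54 FPKM at 6 h, 4.07, 4.14 and 4.20 FPKM at 8 h and 4.87, 4.71 and 5.36 FPKM at 10 h, against 6.65, 6.71 and 6.32 FPKM in untreated 0 h. Every treated library from 4 h to 10 h lay below every untreated one, untreated replicate 3 included. The changes were -0.23 ± 0.07, -0.50 ± 0.07, -0.56 ± 0.07 and -0.34 ± 0.07 (limma adjusted p = 0.0165, 4.77e-06, 1.66e-06 and 0.000738), and -0.25, -0.52, -0.59 and -0.41 without the 4 libraries. The 4 h call was lost without the third library of 4 h (-0.22, adjusted p = 0.0586). From 8 h to 10 h it changed by 0.22 ± 0.07, which was not called without a replicate block (adjusted p = 0.0684) and was called with one (adjusted p = 0.0463). At 24 h the change was -0.10 ± 0.07 (adjusted p = 0.293).

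Ebp encodes the sterol isomerase also known as emopamil-binding protein (ENSMUSG00000031168, chromosome X, 8185329 to 8193512, minus strand). It had 10.9, 10.6 and 9.60 FPKM at 6 h, 10.6, 10.8 and 12.9 FPKM at 8 h and 12.1, 10.2 and 13.8 FPKM at 10 h, against 15.1, 17.6 and 26.04 FPKM in untreated 0 h. No library of these 3 groups reached the lowest untreated one. The changes were -0.83 ± 0.16, -0.70 ± 0.16 and -0.64 ± 0.16 (limma adjusted p = 0.000206, 0.00123 and 0.00378). Untreated replicate 3 was the highest library for Ebp, as it was for Fdps, and without the 4 libraries the changes were -0.61, -0.57 and -0.52, all called. The 8 h call was lost without the 3 libraries with hepatocyte transcripts (-0.54, limma adjusted p = 0.125), which leaves H2O2 8 h with 1 library.

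Sc5d, which encodes sterol C5-desaturase, was higher than in untreated 0 h at each time from 6 h to 10 h. It had 5.20, 4.54 and 4.41 FPKM at 6 h, 6.51, 6.21 and 5.87 FPKM at 8 h and 5.35, 4.76 and 3.95 FPKM at 10 h, against 3.76, 3.75 and 2.36 FPKM in untreated 0 h, without overlap at any of these times. The rises were 0.43 ± 0.12, 0.76 ± 0.12 and 0.42 ± 0.12 (limma adjusted p = 0.00514, 2.48e-05 and 0.00952), and 0.26, 0.63 and 0.35 without the 4 libraries. The 10 h call was lost with the correction for GC content and length (0.19, adjusted p = 0.0694) and without untreated 0 h replicate 3 (0.25, adjusted p = 0.0776) or H2O2 10 h replicate 1 (0.34, adjusted p = 0.0656).

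Lss and Hsd17b7 were called higher at 1 time each. Lss, lanosterol synthase, had 5.34, 4.76 and 5.35 FPKM at H2O2 6 h, against 4.13, 4.52 and 3.12 FPKM in untreated 0 h (0.33 ± 0.09, limma adjusted p = 0.00443; 0.21 without the 4 libraries), and lost the call with the GC and length correction (0.15, adjusted p = 0.179). Hsd17b7, a reductase of C4 demethylation, had 2.49, 2.53 and 2.02 FPKM at H2O2 8 h, against 2.05, 2.04 and 0.920 FPKM in untreated 0 h, so that the groups overlapped. Its change of 0.35 ± 0.14 (adjusted p = 0.047) was 0.21 without the 4 libraries (adjusted p = 0.0197). The call was lost with scaling (0.25, adjusted p = 0.102) and without untreated 0 h replicate 3 (0.13, adjusted p = 0.383). It was also lost without H2O2 8 h replicate 1 (0.32, adjusted p = 0.131) or replicate 2 (0.31, adjusted p = 0.141). Without the 3 libraries with hepatocyte transcripts the change was 0.21.

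Cyp51, Msmo1, Dhcr7 and Tm7sf2 were not called against their controls with all libraries. Cyp51, lanosterol demethylase, had 9.02, 8.80 and 8.14 FPKM at H2O2 6 h, against 12.0, 12.0 and 7.72 FPKM in untreated 0 h, and Dhcr7, the last reductase of the pathway, had 3.21, 3.58 and 3.49 FPKM, against 5.07, 4.48 and 3.34 FPKM. In both, replicate 3 of the controls lay among or below the treated libraries. Their changes were -0.24 ± 0.13 and -0.25 ± 0.10 with all libraries (limma adjusted p = 0.15 and 0.0533), and -0.43 and -0.38 without the 4 (adjusted p = 5.19e-06 and 0.000178). Msmo1, a C4-methyl sterol oxidase, had changes between -0.17 and 0.06 against its controls with all libraries. With median-of-ratios scaling it was called lower at 8 h (-0.32, limma adjusted p = 0.000291) and 10 h (-0.23, adjusted p = 0.00874). Tm7sf2, which encodes a sterol reductase, stayed between 1.27 and 2.65 FPKM over all libraries; it shares 12.1% of its exon bases with Vps51 on the same strand.

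**Figure D3:**
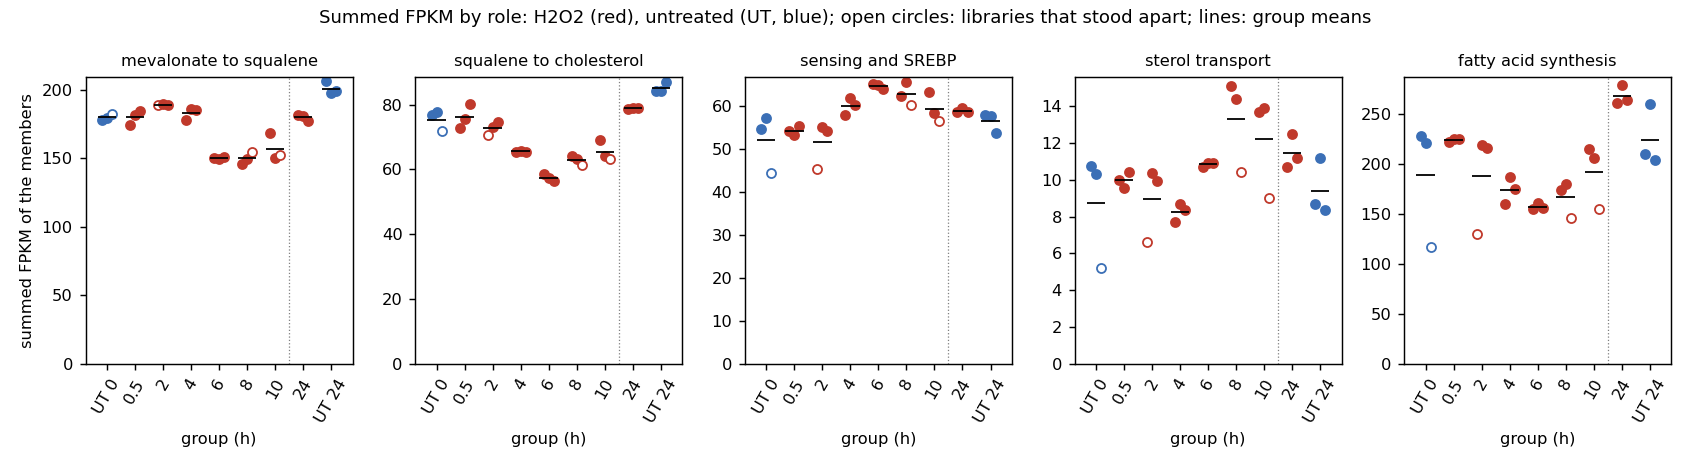
Summed FPKM of the genes of each role in every library, with time in hours on the horizontal axis; red points are H2O2 libraries, blue points untreated (UT) ones, open circles the 4 libraries that stood apart and bars the group means. The squalene-to-cholesterol sum is lowest at 6 h (56.4 to 58.5), and the fatty acid sum of untreated 0 h replicate 3 (117) lies below every H2O2 library.

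The 2 genes of sterol transport were called higher at 8 h, and Abca1 also at 10 h, calls that depended on single libraries. Abca1, a membrane pump that exports cholesterol and a known target of the oxysterol receptors, had 3.73, 3.61 and 2.24 FPKM at H2O2 8 h and 4.04, 4.31 and 2.30 FPKM at 10 h, against 2.59, 2.31 and 0.797 FPKM in untreated 0 h. Replicate 3 was the lowest library in each of these groups, and treated replicate 3 overlapped the controls. The changes were 0.57 ± 0.21 at 8 h (limma adjusted p = 0.0315) and 0.68 ± 0.21 at 10 h (adjusted p = 0.0156). They were 0.44 and 0.59 without the 4 libraries, both called; with only untreated 0 h replicate 3 left out neither was called (0.26, adjusted p = 0.265, and 0.37, adjusted p = 0.132), and the 8 h call was lost with scaling (0.47, adjusted p = 0.0546). Each of the calls at 8 h and 10 h was also lost without treated replicate 1 or replicate 2 of its group. Without the 3 libraries with hepatocyte transcripts the 8 h change was 0.22. At H2O2 24 h Abca1 had 3.16, 3.92 and 3.22 FPKM, against 1.77, 2.36 and 1.97 FPKM in untreated 24 h, without overlap. The change of 0.55 ± 0.21 was not called with all libraries (limma adjusted p = 0.0844). The same change was called without the 4 (adjusted p = 3.89e-05), none of which is in a 24 h group.

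Stard4, a carrier of sterols between membranes, had 11.4, 10.8 and 8.20 FPKM at H2O2 8 h, against 8.18, 8.02 and 4.42 FPKM in untreated 0 h (0.53 ± 0.18, limma adjusted p = 0.0225). The lowest treated library lay just above the highest untreated one. The change was 0.41 without the 4 libraries (adjusted p = 0.00146). The call was lost with scaling (0.37, adjusted p = 0.0514) and without untreated 0 h replicate 3 (0.28, adjusted p = 0.186). It was also lost without H2O2 8 h replicate 1 (0.44, adjusted p = 0.0978) or replicate 2 (0.48, adjusted p = 0.0778). Without the 3 libraries with hepatocyte transcripts the change was 0.27. Of 24 tested other sterol genes (28 listed), 7 were called higher (29.2%) and 6 lower (25%) at 6 h, against 22.3% and 20% of all tested genes. At 8 h 12 were called higher (50%) and 1 lower (4.17%), against 29.2% and 11.6%. Without the 4 libraries 8 of the 24 were higher and 7 lower at 6 h, with 25.4% and 30.7% of all tested genes. At 8 h 12 were then higher and 2 lower, with 30.7% and 17.6% of all tested genes. Among them Abcg1, another cholesterol exporter, changed by 0.66 ± 0.07 at 6 h (limma adjusted p = 1.62e-07), Soat2, which esterifies cholesterol, by 0.52 ± 0.12 (adjusted p = 0.000887), Hsd17b11 by -0.73 ± 0.06 (adjusted p = 4.57e-09) and Cyp7b1, an oxysterol hydroxylase, by -0.65 ± 0.13 (adjusted p = 0.000245). Their changes without the 4 libraries were 0.63, 0.64, -0.78 and -0.72, all called.

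Among the fatty acid synthesis genes, Scd2 and Elovl6 fell at 6 h and Elovl6 was higher than control at 24 h. With all libraries 2 of the 6, Scd2 and Elovl6, were called at 6 h, both lower (33.3%, against 20% of all tested genes called lower). Without the 4 libraries 5 of the 6 were called lower at 4 h, at 6 h and at 8 h. That is 83.3% at each time, against 27.7%, 30.7% and 17.6% of all tested genes called lower. The summed FPKM of the 6 genes was 156, 161 and 156 at H2O2 6 h, against 229, 221 and 117 in untreated 0 h.

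Scd2, the main stearoyl-CoA desaturase of these cells by FPKM, had the largest fall of the 31 genes. Scd2 (ENSMUSG00000025203, chromosome 19, 44293674 to 44306864, plus strand) had 24.1, 28.7 and 27.1 FPKM at H2O2 6 h, against 62.6, 59.5 and 32.1 FPKM in untreated 0 h. It fell by 0.87 ± 0.22 (limma adjusted p = 0.00266), and the change was -1.17 without the 4 libraries (adjusted p = 2.57e-08). Even the lowest untreated library lay above the treated ones. From 6 h to 8 h Scd2 rose by 0.85 ± 0.22 (limma adjusted p = 0.00605), to 51.2, 53.1 and 42.0 FPKM. At 10 h it had 84.2, 80.8 and 56.3 FPKM, which was not called against untreated 0 h with all libraries (0.55 ± 0.22, adjusted p = 0.059). It was called higher without the 4 (0.43, adjusted p = 0.00602) and with a replicate block (adjusted p = 0.0384). Its neighbours and near copies Scd3 and Scd4 reached at most 0.407 and 0.0438 FPKM.

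Elovl6, which elongates palmitate, was lower early and higher at 24 h. Elovl6 (ENSMUSG00000041220, chromosome 3, 129532355 to 129638495, plus strand) had 18.2, 17.96 and 16.6 FPKM at H2O2 6 h, against 29.4, 27.8 and 18.7 FPKM in untreated 0 h (-0.48 ± 0.14, limma adjusted p = 0.0105; -0.68 without the 4 libraries). At H2O2 24 h it had 33.02, 36.7 and 35.0 FPKM, against 21.1, 26.3 and 21.6 FPKM in untreated 24 h (0.59 ± 0.14, limma adjusted p = 0.0106). The 6 h call was lost without untreated 0 h replicate 1 (-0.36, adjusted p = 0.0634) or replicate 2 (-0.40, adjusted p = 0.0501), and the 24 h call without untreated 24 h replicate 1 (0.53, adjusted p = 0.0554) or replicate 3 (0.55, adjusted p = 0.0524). The groups did not overlap at either time. The 24 h effect exceeded the 10 h effect by 0.82 ± 0.20 (limma adjusted p = 0.0136), and by 0.89 without the 4 libraries. It was the only such difference called among the 31 with all libraries. Of all tested genes 8.7% were called (2.95% with a higher effect at 24 h, 5.75% with a lower one). The controls of the compared effects differ in culture age, and hepatocyte transcripts differed between the 24 h groups. The part of either was not tested. Fitted on only the libraries compared, the difference was not called.

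Fasn, fatty acid synthase, and Acaca, acetyl-CoA carboxylase, followed a like course but depended on untreated 0 h replicate 3. Fasn had 22.3, 22.9 and 18.4 FPKM at H2O2 8 h, against 37.1, 34.3 and 16.9 FPKM in untreated 0 h, and Acaca had 1.54, 1.52 and 1.24 FPKM, against 3.17, 2.81 and 1.204 FPKM. In both genes untreated replicates 1 and 2 lay far above the treated libraries and replicate 3 just below them. Fasn changed by -0.39 ± 0.21 (limma adjusted p = 0.158) and by -0.64 without the 4 libraries (adjusted p = 6.72e-05), and Acaca by -0.43 ± 0.18 (adjusted p = 0.0619) and by -0.66 (adjusted p = 0.000157). Acaca had 3.31, 3.78 and 3.47 FPKM at H2O2 24 h, against 2.20, 2.97 and 2.06 FPKM in untreated 24 h. The change of 0.42 ± 0.18 was not called with all libraries (limma adjusted p = 0.125). The same change was called without the 4 (adjusted p = 0.00158).

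Scd1, the second desaturase, had 8.11, 8.85 and 9.03 FPKM at H2O2 6 h, against 13.1, 13.8 and 8.39 FPKM in untreated 0 h. It changed by -0.37 ± 0.16 with all libraries (limma adjusted p = 0.0602), was called with a replicate block (adjusted p = 0.0464) and changed by -0.58 without the 4 libraries (adjusted p = 4.32e-07). Acly, the ATP citrate lyase that supplies cytosolic acetyl-CoA to both pathways, had the highest FPKM of the set in most groups. It had 75.5, 77.8 and 74.9 FPKM at H2O2 6 h, against 83.1, 82.7 and 39.4 FPKM in untreated 0 h, which was not called with or without the 4 libraries (0.23, adjusted p = 0.421, and -0.12, adjusted p = 0.144).

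Of 28 tested other fatty acid and lipid genes (33 listed), 1 was called higher and 8 lower (28.6%) at 6 h. Of all tested genes 22.3% were called higher and 20% lower. Agpat2, an acyltransferase of phospholipid and triglyceride synthesis, changed by -1.02 ± 0.18 (limma adjusted p = 6.69e-05), Mcat, of mitochondrial fatty acid synthesis, by -0.59 ± 0.15 (adjusted p = 0.00267), Acsl3, an acyl-CoA synthetase, by -0.50 ± 0.16 (adjusted p = 0.0182) and Hacd1, a dehydratase of chain elongation, by -0.46 ± 0.17 (adjusted p = 0.0317). The changes of these 4 genes without the 4 libraries were -0.82, -0.41, -0.72 and -0.35, all called. Of the 28 genes 14 were then called lower (50%, against 30.7% of all tested genes) and 2 higher (against 25.4%). Agpat2 had 7.50, 6.33 and 6.71 FPKM at H2O2 6 h, against 13.01, 12.6 and 20.1 FPKM in untreated 0 h, and 13.9, 13.9 and 18.3 FPKM at H2O2 8 h.

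From 10 h to 24 h, 8 of the 31 genes rose and none fell, that is 25.8% higher, against 8.18% of all tested genes called higher and 11.2% called lower. They were Acaca, Scd1, Elovl6, Sqle, Msmo1, Nsdhl, Fdft1 and Acat2, with changes between 0.22 and 0.71. Elovl6 rose by 0.71 ± 0.14 (limma adjusted p = 0.00127), Acaca by 0.70 ± 0.18 (adjusted p = 0.00811) and Sqle by 0.49 ± 0.10 (adjusted p = 0.000976). The counts without the 4 libraries were 13 higher and 4 lower, with 14.8% of all tested genes higher and 20.8% lower. Of the 8 genes, Nsdhl and Acat2 had been called lower at 10 h with all libraries. The step compares treated groups of different culture age. Between untreated 24 h and untreated 0 h, 0 of the 31 were called by limma with all libraries, with 6 at an unadjusted p below 0.05 and 0.705% of all tested genes called. Without the 4 libraries 11 were called (9 higher, 2 lower), and 30.1% of all tested genes were (11.7% higher, 18.4% lower). The part of culture age in the step was not tested.

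At 24 h, set against untreated 24 h, Fdps, Mvd and Acat2 were called lower, and Elovl6 and Scap higher. Without the 4 libraries Fasn, Acaca, Acly, Abca1, Hmgcs1 and Sqle were also called higher, and Mvk, Ebp and Dhcr7 lower. None of the 4 belonged to a 24 h group, so the changes were the same and only the pooled spread and the adjustment differed. The share of all tested genes called went from 12.9% to 51.3%. The calls of Fdps, Mvd and Acat2 with all libraries rested on single libraries of both groups. Leaving out any 1 H2O2 24 h library ended those of Fdps and Mvd, and leaving out its replicate 2 or 3 ended that of Acat2. Scap alone remained when untreated 24 h replicate 1 or replicate 3 was left out, which lowers the count to 1. With median-of-ratios scaling Fdps and Mvd missed the threshold (limma adjusted p = 0.0502 and 0.0517). Hepatocyte transcripts were high in all 3 untreated 24 h libraries and low in all 3 H2O2 24 h libraries, as given above, so they cannot be told apart from the treatment at this time. In the authors' deposited table, 12 of the 31 genes had a q-value below 0.05 at 24 h, 4 higher and 8 lower, against 33.7% of the 13614 genes tested here.

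**Figure D4:**
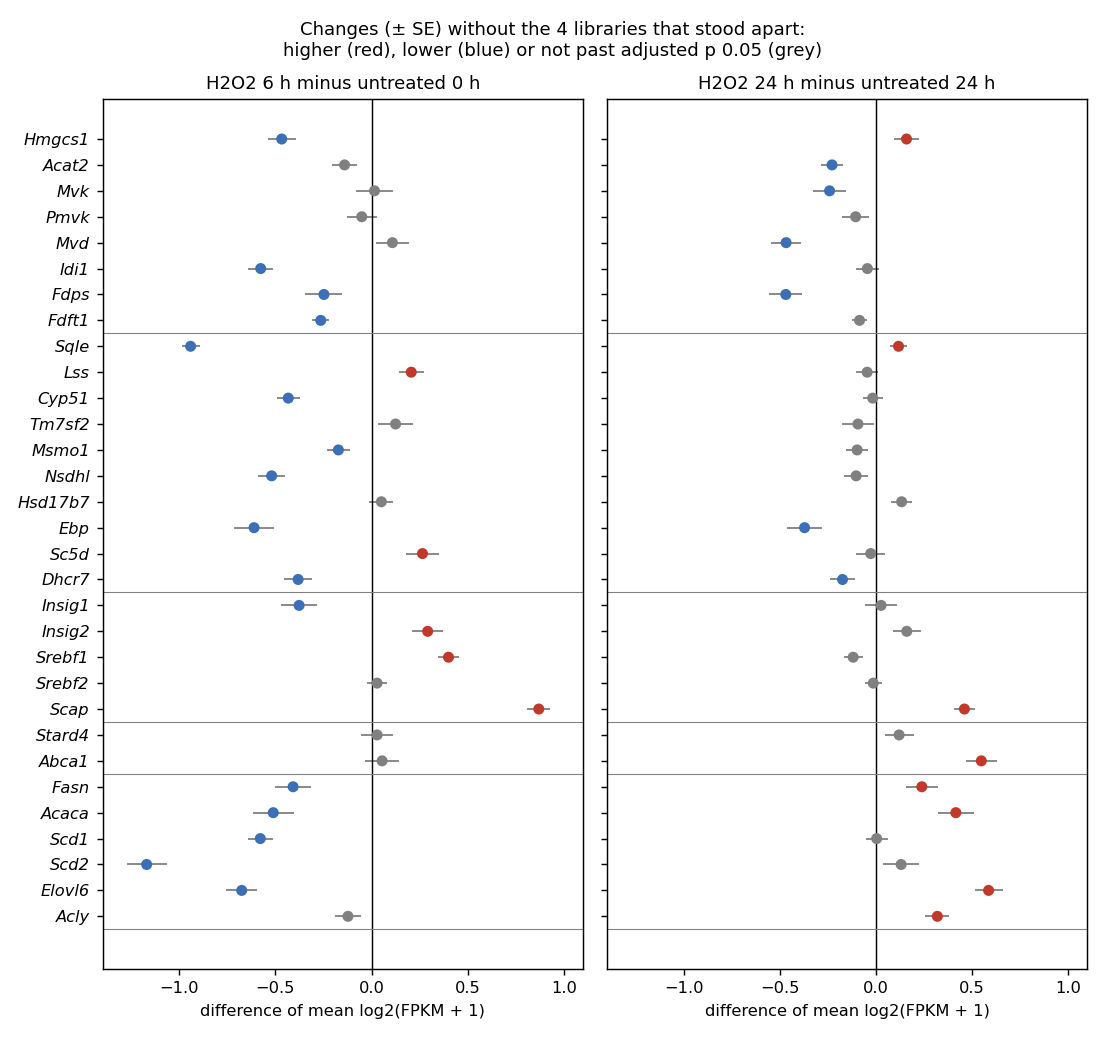
Change of the 31 mRNAs at H2O2 6 h minus untreated 0 h (left) and H2O2 24 h minus untreated 24 h (right), without the 4 libraries that stood apart, as the difference of mean log2(FPKM + 1) with its SE; red, called higher, blue, called lower, grey, not called at a limma adjusted p below 0.05. Scd2 (-1.17) and Sqle (-0.94) are lowest at 6 h and Scap (0.87) highest, and at 24 h Fdps and Mvd (both -0.47) lie at the low end.

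The spread used for each test came from all 27 libraries. When each comparison was fitted on its own libraries alone, 0 genes were called at 4 h, 4 at 6 h (Scap, Sqle, Nsdhl and Ebp), 4 at 8 h (Scap, Sc5d, Insig2 and Nsdhl), 0 at 10 h and 9 at 24 h. Shares of all tested genes under these separate fits are not given here, so the counts cannot be compared with those of all genes. None of the 31 was called at any time with all libraries when a change of at least 1 on the log2(FPKM + 1) scale was also required. On that scale Scap changed by 0.95 at 6 h, whereas its log2 fold in the authors' deposited values was 1.05.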

How the data were processed

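Poly(A) RNA of 27 mouse embryonic stem cell libraries was sequenced in paired ends from stranded libraries, per the labels' protocols. The build mm10 and the tools HISAT2, StringTie, edgeR, cutadapt and FastQC are listed in the submitters' processing notes. No source used here gives versions, annotation release, strand setting or filters. As deposited by the authors, the 7 tables hold FPKM values per gene and library and log2 fold changes and q-values per comparison, and they were joined by gene ID; 15 columns occurred more than once, with identical values. FPKM hides depth, so no counting interval is given.

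Genes reaching 1 FPKM in at least 3 libraries were tested on log2(FPKM + 1) with limma 3.58.1 (trend; R 4.3.3), 1 mean per group over all 27 libraries, and Benjamini-Hochberg adjustment within each comparison over all 13614 genes. Median SE of a comparison was 0.13. The 31 genes, the comparison lists and the markers were chosen with earlier results of these data known; from each comparison list up to 4 called genes with the largest change at 6 h were named. The test was checked on simulated data. Deviations from the group mean correlated above 0.1 in all 3 same-number pairs for 8 h against untreated 0 h (0.464 to 0.691). They did so too for 10 h against untreated 0 h (0.558 to 0.797) and 10 h against 8 h (0.301 to 0.668). Replicate 3 stood apart in each of these 3 groups, so the check cannot tell pairing by number from a shared outlying replicate. P-values measure the spread between the labelled biological replicates. Alternatives were another pseudocount, filter, scaling, control, spread, weighting, GC and length correction, replicate block and left-out libraries. Promoters are RefSeq windows on GRCm38.p6, and gene coordinates are GENCODE M21 on GRCm38. Python 3.11.15, pandas 2.3.3 and matplotlib 3.10.9 were used.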

Additional observations from a re-analysis of the deposited data

Results flagged for a closer look

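For 1 of the 31 genes, the change relative to its control differed between 24 h and 10 h by a test of the difference itself. Elovl6 had a 24 h effect (H2O2 24 h minus untreated 24 h) that exceeded its 10 h effect (H2O2 10 h minus untreated 0 h) by 0.82 on the log2(FPKM + 1) scale (limma adjusted p = 0.0136). The controls differ in culture age, and hepatocyte transcripts were high in untreated 24 h and low in H2O2 24 h. The part of either in the difference was not tested. Fitted on only the libraries compared, the difference was not called.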

How the results depend on the processing

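Counts are of the 31 genes called, with no share of all tested genes beside them. Leaving out 1 library at a time gave 0 to 0 at 0.5 h and 2 h, 2 to 8 at 4 h, 11 to 16 at 6 h, 6 to 18 at 8 h, 5 to 11 at 10 h, 1 to 4 at 24 h and 0 to 1 between the untreated groups. For the steps it gave 0 to 0 (0.5 h to 2 h), 2 to 5 (2 h to 4 h), 4 to 5 (4 h to 6 h), 2 to 3 (6 h to 8 h), 0 to 0 (8 h to 10 h) and 6 to 8 (10 h to 24 h), and 1 to 6 for the 24 h effect minus that at 10 h. The highest counts against untreated 0 h came without its replicate 3. The lowest came without the third library at 4 h, the second at 6 h and the first at 8 h and at 10 h; at 24 h they came without untreated 24 h replicate 1 or 3. In the lists that follow, unmarked steps run from early to late, and counts within 1.5 times those reported are left out. Without the 4 libraries that stood apart they were 18 (4 h), 21 (6 h), 23 (8 h), 15 (10 h), 14 (24 h), 11 (untreated), 13 (2 h to 4 h), 20 (4 h to 6 h), 11 (6 h to 8 h), 6 (8 h to 10 h), 17 (10 h to 24 h) and 9 (difference). With library weights they were 5 (2 h), 18 (4 h), 22 (6 h), 24 (8 h), 19 (10 h), 17 (24 h), 13 (untreated), 6, 17, 23, 18, 7 and 18 (steps) and 9 (difference). With the correction for GC content and length they were 2 (2 h), 9 (4 h), 22 (8 h), 17 (10 h), 11 (24 h), 4 (untreated), 1, 8, 17, 10, 6 and 17 (steps) and 6 (difference). With median-of-ratios scaling they were 18 (8 h), 13 (10 h), 3 (24 h), 3 (8 h to 10 h) and 2 (difference), and with a replicate block as well 5 (4 h), 20 (8 h), 13 (10 h), 7 (6 h to 8 h), 5 (8 h to 10 h) and 3 (difference). The replicate block alone gave 2 for 8 h to 10 h and left the other counts within 1.5 times. The calls it changed at 4 h, 6 h and 10 h to 24 h were Elovl6 at 4 h (limma adjusted p = 0.0497), Acat2 and Scd1 at 6 h, and Fdps and Acly from 10 h to 24 h (adjusted p = 0.0487 and 0.0444). In these comparisons the deviations did not correlate above 0.1 in all 3 pairs. With both untreated groups as control they were 5 (4 h), 18 (8 h) and 13 (10 h). Fitted on only the libraries compared they were 0 (4 h), 4 (6 h), 4 (8 h), 0 (10 h), 9 (24 h), 1 (2 h to 4 h), 18 (4 h to 6 h), 0 (8 h to 10 h) and 0 (difference). With no filter they were 7 (8 h), 3 (24 h) and 2 (6 h to 8 h), and with a pseudocount of 0.1 they were 2 (6 h to 8 h) and 0 (8 h to 10 h). Requiring also a change of at least 1 on the log2(FPKM + 1) scale gave 0 from 4 h to 24 h, in the steps from 2 h on and in the difference. Without the 3 libraries of 6 h and 8 h with hepatocyte transcripts, a setting chosen after seeing the data, they were 4 (8 h), 1 (6 h to 8 h) and 0 (8 h to 10 h). Signs turned at 4 h for Hmgcs1 (-0.22 with weights, -0.25 without the 4 libraries), Idi1 (-0.20 and -0.21) and Abca1 (-0.23 and -0.28). They also turned between the untreated groups with weights for Fasn (-0.24), Acaca (-0.26) and Acly (-0.20), and with the GC and length correction for Srebf2 at 8 h (-0.20), Cyp51 at 10 h (-0.16) and Scd1 at 24 h (-0.20). The cause was not tested. Depth is unknown in FPKM and limits the weakly expressed genes most.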
